A study of Mus musculus with 4 samples.

Results

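The comparison described here sets miR-26a knockout cells that received a miR-26a mimic against the same genotype left untransfected. It takes in 2 of the 4 libraries of the study, 1 a side, and 12536 of the 16416 genes of the table had enough counts to be measured in it. A gene was measured when either library held at least 1 CPM (a count scaled to the size of its library). The cells had grown out of the shoulder joint capsule of mice 1 week after immobilization of the joint and were used at passage 2, and the study asked which genes are targets of miR-26a. All 4 groups share the tissue, the immobilization and the passage. The wild-type library came from C57BL6/J mice, and the other 3 from mice of genotype miR-26a -/-. The mimic, a double-stranded RNA, was transfected at 10 nM for 24 h with Lipofectamine RNAiMax. How many mice gave each culture is not stated in the labels. A negative-control siRNA, Silencer Negative Control, was given to another knockout culture at the same dose and time. The untransfected knockout library received neither an oligonucleotide nor, per the labels, a transfection, so the effect of the mimic's sequence and that of transfection cannot be told apart in this pair. For that reason values of the negative-control library stand beside most results, although each ratio made with it shares a library with the comparison.

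A microRNA guides an Argonaute protein to messenger RNAs by pairing of its seed, the bases next to its 5′ end, with complementary sites that lie mostly in the 3′ untranslated region (3′ UTR). Recruitment of TNRC6 and of the deadenylase complex then shortens the poly(A) tail and lowers the transcript, usually by a modest amount for each target. miR-26a is abundant in many differentiated tissues, and its known targets include Ezh2 and cyclins. It is encoded within introns of Ctdspl and Ctdsp2, and its relative miR-26b within Ctdsp1. miR-26a itself was not measured in these libraries, which hold counts of annotated genes only.

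The guide strand of the mimic, as the labels give it, is identical to the mature miR-26a-5p of RefSeq (GRCm38.p6). The passenger strand has 1 difference from RefSeq miR-26a-1-3p, A14C (RefSeq base first, position counted from the 5′ end, then the base of the mimic). miR-26b-5p shares the seed of the guide. The sequences are shown because every site below was derived from them, and capitals mark the seed, bases 2 to 8.
mimic guide strand: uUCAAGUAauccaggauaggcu
miR-26b-5p: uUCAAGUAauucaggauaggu
mimic passenger strand: cCUAUUCUugguuccuugcacg
miR-26a-1-3p: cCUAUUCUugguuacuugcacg

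Sites were searched on the transcript strand of the longest 3′ UTR of each gene. The strongest, TACTTGAA, pairs with bases 2 to 8 and ends in an A opposite base 1 (8-base site). TACTTGA pairs with bases 2 to 8 without that A, ACTTGAA with bases 2 to 7 followed by the A, and ACTTGA with bases 2 to 7 alone. The shorter forms lie within the longer ones, and each gene was placed in the class of its strongest site. Of 12343 measured genes with an annotated 3′ UTR, 619 (5.01%) held an 8-base site. The 12 lowest ratios among genes with an 8-base site and at least 5 TPM are described below. Their sites, except those of Inhbb and Srp19, follow as 24-base fragments of the GENCODE M21 transcripts. The site is in capitals, and its coordinates are on GRCm38. Each lies in the 3′ UTR, within the last exon of its transcript.
Slc22a23, chr13:34182031-34182038, minus strand: gccctgttgccagtacTACTTGAA
Stradb, chr1:58994525-58994532, plus strand: acaaatgacaaatctaTACTTGAA
Gmds, chr13:31819667-31819674, minus strand: aatcacatactcatttTACTTGAA
Txndc15, chr13:55726083-55726090, plus strand: tgttgttgctttttaaTACTTGAA
Acat2, chr17:12943458-12943465, minus strand: ttctgtgcctcctgaaTACTTGAA
Plod2, chr9:92608070-92608077, plus strand: ttttttaaagcttacgTACTTGAA
Hoxa9, chr6:52223795-52223802, minus strand: gatcattctgccaaaaTACTTGAA
Hgf, chr5:16619228-16619235, plus strand: acatatctcctgaagaTACTTGAA
Slc25a16, chr10:62944597-62944604, plus strand: attgtgaaggaaacatTACTTGAA
Rnf149, chr1:39552382-39552389, minus strand: tagggcagagtttgtaTACTTGAA

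Plod2, Stradb, Hgf, Slc22a23 and Slc25a16 each had a 7-base TACTTGA site in the same 3′ UTR as well. Loxl2 and Trp53inp1, described below, had TACTTGA sites without the final A.
Loxl2, chr14:69694555-69694561, plus strand: tctagtcttctgtattaTACTTGA
Trp53inp1, chr4:11170379-11170385, plus strand: tatactttattgaccagTACTTGA

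Estimated counts summed to 17598763 in the untransfected knockout and 18584404 in the mimic library, and to 18198033 in wild type and 19392655 in the negative control. With 1 library a group no spread between cultures can be estimated and no test was made. Every log2 ratio is of scaled counts, mimic over untransfected knockout, and carries an exact binomial 95% counting interval that covers counting error only. A gene is called higher or lower where the ratio passes the stated fold and the interval excludes 0. Levels are TPM, transcript abundances scaled by transcript length and library size. The cells are labelled as synovial fibroblasts. The 19 fibroblast markers found among the genes of the table summed to 25767 TPM in wild type, 17065 in untransfected knockout, 15213 in negative control and 17215 in mimic. The 24 macrophage markers found there summed to 25038, 36825, 35688 and 35614 TPM in that order. Macrophage markers thus stood above fibroblast markers in the 3 knockout libraries, against the label, and about level with them in wild type. Lyz2, the lysozyme of myeloid cells, alone stood at 18991 TPM in the knockout and 17807 in the mimic library. In such bulk RNA fewer cells of a type and less RNA per cell cannot be told apart.

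The comparison was narrow. At 2-fold, 33 genes (0.263% of 12536) were called higher and 59 (0.471%) lower in the mimic library. At 1.5-fold, 141 genes (1.12%) were called higher and 226 (1.8%) lower. Most of these were of low abundance. With at least 5 TPM in the higher of the 2 libraries, 5 were higher and 12 lower at 2-fold, and 58 and 109 at 1.5-fold. The median over all measured genes was 0.0016, 49.7% lay below 0, and the middle 90% of genes spanned -0.43 to 0.38. On the deposited TPM genes were called by the fold limit alone, without an interval. With a pseudocount of 0.1 the 1.5-fold split there was 242 higher and 244 lower, and with a pseudocount of 1 it was 103 and 104. This near-even split differs from that of the counts in both scale and calling rule.

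Genes with an 8-base site were lower in the mimic library far more often than they were higher. Of 619, 31 (5.01%) were called at least 1.5-fold lower and 0 higher, beside 1.8% and 1.12% of all genes. The clearest among well expressed genes were the glycan enzyme Gmds, the collagen lysyl hydroxylase Plod2, the thioredoxin-domain protein Txndc15 and the sterol-related thiolase Acat2. Each had its lowest value of the 4 libraries with the mimic.

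Plod2 hydroxylates lysines of collagen telopeptides, on which stable crosslinks are built. It stood at 122 TPM in wild type, 132 in untransfected knockout, 135 in negative control and 75.8 in mimic. The 3 libraries without mimic lay close together and the mimic library lay apart. The log2 ratio of mimic to knockout was -0.83 (-0.90 to -0.76), and that of negative control to knockout was 0.01.

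Gmds, which makes the precursor of GDP-fucose, stood at 43.6, 34.6, 36.8 and 19.2 TPM in the wild-type, untransfected, negative-control and mimic libraries. Its log2 ratio was -0.90 (-1.14 to -0.67), with 0.04 for negative control over knockout. Its 3′ UTR is 337 bases long, and the site begins 241 bases after the stop codon. Txndc15 stood at 91.2, 99.2, 89.3 and 56.0 TPM in the same order, a log2 ratio of -0.87 (-1.01 to -0.74). Its 3′ UTR has 364 bases. Acat2, a cytosolic thiolase that joins acetyl-CoA units at the entry to sterol synthesis, stood at 68.5, 64.8, 58.6 and 36.7 TPM, a log2 ratio of -0.87 (-1.01 to -0.73). Negative control over knockout was at -0.20 for Txndc15 and -0.18 for Acat2, with intervals wholly below 0. A smaller part of their distance was thus shared with the negative control.

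Rnf149, a membrane-bound ubiquitin ligase, stood at 109, 148, 154 and 90.8 TPM, a log2 ratio of -0.73 (-0.81 to -0.65). Srp19, a protein of the signal recognition particle, stood at 104, 116, 117 and 71.6 TPM, a log2 ratio of -0.76 (-0.94 to -0.59). Slc25a16, a carrier of the inner mitochondrial membrane, stood at 17.99, 17.67, 17.52 and 10.84 TPM, a log2 ratio of -0.74 (-0.95 to -0.53). For Rnf149, Srp19 and Slc25a16 the negative-control library stayed within 0.05 log2 of the untransfected one and the mimic library was lowest.

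Slc22a23, a member of the organic ion transporter family, had the lowest ratio of the genes with an 8-base site and at least 5 TPM. It stood at 13.9, 5.79, 6.91 and 3.06 TPM in the wild-type, untransfected, negative-control and mimic libraries, a log2 ratio of -0.97 (-1.24 to -0.70). Hoxa9, a homeobox factor of posterior identity, stood at 16.4, 8.55, 11.0 and 4.96 TPM, a log2 ratio of -0.82 (-1.14 to -0.52). Both were already lower in untransfected knockout than in wild-type cells, and with mimic they were further from the wild-type level.

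In Stradb, Hgf and Inhbb a larger part of the distance was shared with the negative-control library. Stradb, a pseudokinase that activates LKB1, stood at 14.6, 19.0, 14.6 and 10.1 TPM, with log2 ratios of -0.96 for mimic over knockout, -0.42 for negative control over knockout and -0.54 for mimic over negative control. Hgf, the hepatocyte growth factor secreted by fibroblasts, stood at 28.4, 19.2, 14.6 and 11.5 TPM, with ratios of -0.81, -0.44 and -0.37 in that order. Inhbb, the beta B subunit of activin and inhibin, stood at 14.7, 27.8, 15.6 and 16.9 TPM. Its ratio was -0.76 against the untransfected library and 0.11 against the negative control, so Inhbb was not lower with mimic than with the other oligonucleotide.

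**Figure D1:**
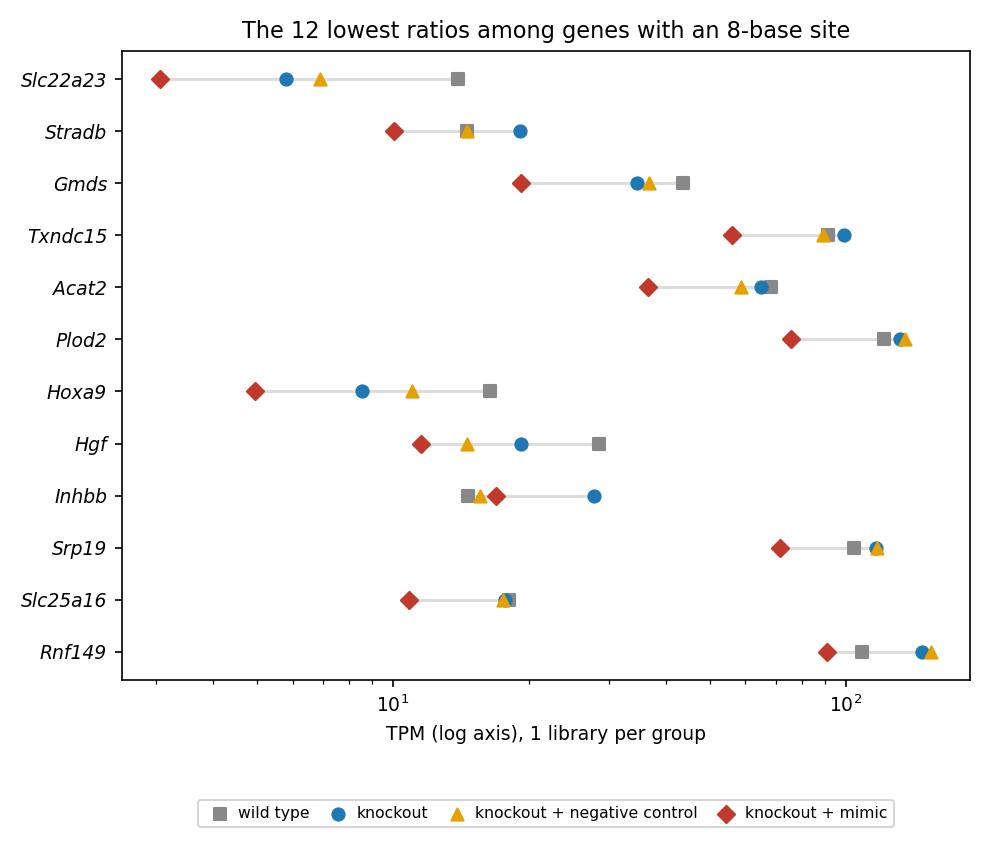
Level in each of the 4 libraries (TPM, log axis) of the 12 genes with the lowest mimic to knockout ratio among those with an 8-base miR-26a site and at least 5 TPM. Each symbol is 1 library without a replicate. The mimic library is the lowest of the 4 for 11 genes, and Inhbb is the exception.

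The 4 genes with an 8-base site that passed 2-fold lower, named after their values were seen, were all below 5 TPM. Palm3 stood at 1.31 TPM in knockout, 0.79 in negative control and 0.14 in mimic, and Acss3 at 0.62, 0.58 and 0.21. Tet1 stood at 0.17, 0.11 and 0.08 TPM and Frat2 at 4.85, 3.24 and 2.41, so for these a large part of the distance was shared with the negative control. They rest on 29, 24, 22 and 89 counts in the knockout library and have wide intervals. Beyond the 12 genes above, members called lower at 1.5-fold with at least 15 TPM in the knockout library, also named after their values were seen, were Snn, Clec4n, Nabp1, Mtx2, Bloc1s2, Zdhhc20 and Hectd3. Clec4n, a lectin receptor of myeloid cells, stood at 68.5 TPM in knockout, 65.1 in negative control and 43.5 in mimic. Mtx2, a subunit of the mitochondrial outer membrane sorting machinery, stood at 61.7, 65.3 and 41.4 TPM. Zdhhc20, a protein palmitoyltransferase, stood at 50.4, 56.4 and 34.3 TPM. The highest ratio among 8-base genes with at least 5 TPM was that of the orphan receptor Gpr39, at 10.2 TPM in knockout, 11.5 in negative control and 15.2 in mimic, a log2 ratio of 0.53 (0.30 to 0.78).

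Without regard to 3′ UTR length, the 8-base class had the lowest median of the site classes. For the 8-base class the median was -0.076 and 65.3% lay below 0, against 0.0015 and 49.7% over all 12343 genes with a 3′ UTR. The 815 genes whose best site was TACTTGA had a median of -0.0058, with 16 (1.96%) called lower and 5 (0.613%) higher at 1.5-fold. The 1287 genes with ACTTGAA had -0.0022, with 23 (1.79%) lower and 11 (0.855%) higher. The 1861 genes with ACTTGA alone had 0.037, with 29 (1.56%) in either direction. The 7761 genes without a site had -0.00026, with 118 (1.52%) lower and 86 (1.11%) higher. Over all genes with a 3′ UTR 1.76% were called lower and 1.06% higher, so the lower calls of both 7-base classes were near that share.

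On the TPM scale the medians of both 7-base classes changed sign, to 0.031 and 0.039 with a pseudocount of 1. The median of all genes on that scale was 0.041. The 8-base median stayed below 0 there, at -0.03, with 17 genes lower at 1.5-fold by the fold limit alone. Against the negative-control library the 8-base genes had a median of -0.090, and from knockout to negative control 0.022. Among genes called at least 1.5-fold lower with an annotated 3′ UTR, 31 of 217 (14.3%) held an 8-base site, and among those called higher 0 of 131 did.

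Sites for the passenger strand and for other microRNAs had medians above 0. The 394 genes with an 8-base passenger site (AGAATAGA) had a median of 0.015, with 9 (2.28%) called lower and 3 (0.761%) higher at 1.5-fold. Genes with an 8-base site for let-7a-5p (CTACCTCA), miR-21a-5p (ATAAGCTA), miR-29a-3p (TGGTGCTA) or miR-199a-3p (ACTACTGA) had medians of 0.071, 0.043, 0.074 and 0.039. These 4 classes held 459, 295, 421 and 340 genes, and like the miR-26a class they had long 3′ UTRs, with medians from 2457 to 3072 bases. The miR-26a 8-base class had a median 3′ UTR of 2759 bases and the class without a site 809.

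**Figure D2:**
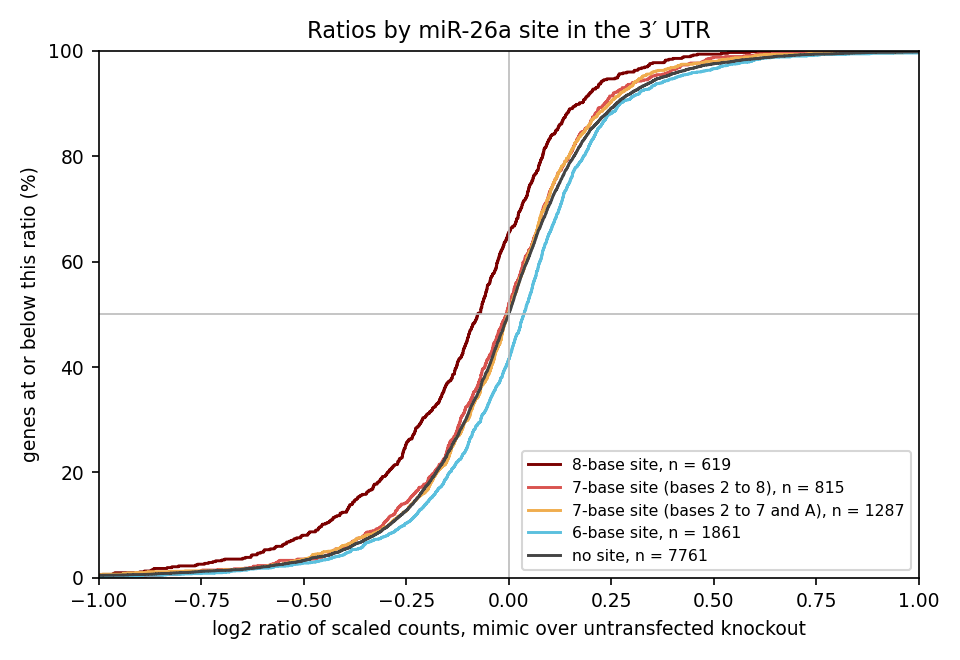
Cumulative share of genes (%) against the log2 ratio of scaled counts, mimic over untransfected knockout, for each class of miR-26a site in the 3′ UTR, with the axis limited to ratios between -1 and 1. The curve of the 619 genes with an 8-base site lies to the left of the other 4, whose medians are between -0.0058 and 0.037.

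The length of the 3′ UTR moved with the ratio whether or not a site was present. Genes were placed in 3 groups of like size by 3′ UTR length, up to 746 bases, 747 to 1892 bases, and 1893 bases or more. Genes without a site had medians of -0.057, 0.027 and 0.068 in the short, middle and long groups. Genes with an 8-base site had -0.28, -0.15 and -0.033, and so lay below the genes without a site in each group. Of 46 short 8-base genes 42 lay below 0, of 148 middle ones 115, and of 425 long ones 247. At 1.5-fold lower were 7, 11 and 13 of them (15.2%, 7.43% and 3.06%), beside 2.15%, 1.15% and 0.632% of genes without a site. Within these groups the TACTTGA genes lay lower than genes without a site as well, with medians of -0.15, -0.046 and 0.016, and so did the ACTTGAA genes, with -0.068, -0.040 and 0.035. What share of the length trend belongs to the mimic was not tested.

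**Figure D3:**
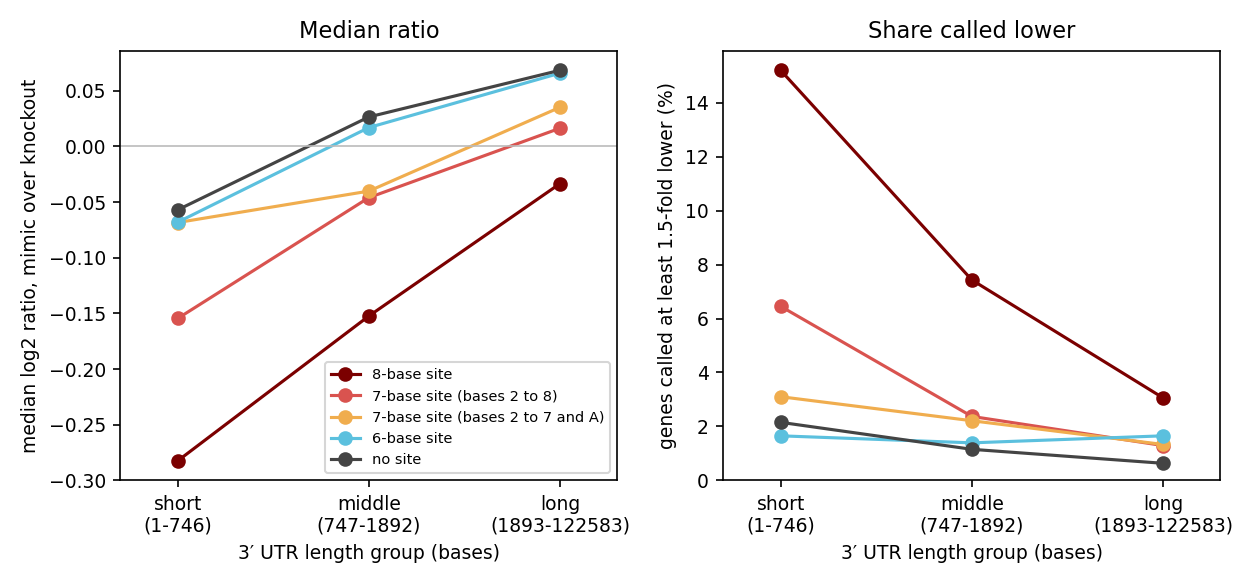
Median log2 ratio of mimic over untransfected knockout (left) and share of genes called at least 1.5-fold lower (right, %) for each class of miR-26a site, by 3′ UTR length group in bases. Genes with an 8-base site have the lowest median in every group, from -0.28 in short to -0.033 in long 3′ UTRs.

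Position in the 3′ UTR separated the 583 genes with a single 8-base site. Those with the site at most 1127 bases after the stop codon had a median of -0.13, with 22 of 292 called lower at 1.5-fold. Those farther away had -0.015, with 5 of 291 lower. By distance to the nearer end of the 3′ UTR, split at 522 bases, the medians were -0.13 and -0.027, with 24 and 3 called lower. Both distances move with 3′ UTR length, which split the same genes at 2735 bases into medians of -0.14 and -0.019. The share of A and T in the 30 bases on either side gave medians of -0.077 above and -0.065 at or below its split. The level in knockout cells, split over all 619 genes with an 8-base site, gave -0.087 above and -0.065 at or below.

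More sites went with somewhat lower ratios. The 36 genes with at least 2 8-base sites had a median of -0.12, with 4 called lower, and the 583 with 1 had -0.068. Counting sites of 7 or 8 bases, genes with 0, 1, 2 and 3 or more had medians of 0.0073, -0.014, -0.033 and -0.033. An 8-base site in the coding sequence with none in the 3′ UTR went with a median of -0.0077 over 167 genes, 3 of them called lower, among 5864 genes with no site in either part at -0.0016.

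For this and the lists below, calls at 1.5-fold stand beside 1.8% lower and 1.12% higher over all measured genes. Published targets of miR-26a were split. Of 37 measured members 25 lay below 0, the median was -0.096, and 4 were called lower and 0 higher at 1.5-fold. Those 4 were Plod2 and Hgf, given above, Tet1 at under 1 TPM, and the lysyl oxidase Loxl2. Among the 19 with an 8-base site 15 lay below 0, with a median of -0.16. The 10 whose best site was TACTTGA had 4 below 0 and a median of 0.076. The 8 with a weaker site or none had 6 below 0 and a median of -0.26, so the medians did not follow the strength of the site. Against the negative control the list's median was -0.27, and from knockout to negative control it was 0.024.

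Loxl2 oxidises lysines of collagen and elastin and acts after Plod2 in crosslinking. It stood at 98.1 TPM in wild type, 121 in knockout, 121 in negative control and 73.8 in mimic, a log2 ratio of -0.75 (-0.81 to -0.69). Its TACTTGA site, printed above, lies 1435 bases after the stop codon of a 3′ UTR of 2715 bases. As for Plod2, the untransfected and negative-control values were nearly equal and the mimic value was lowest.

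Acsl3, a long-chain acyl-CoA synthetase, stood at 37.6, 27.3, 32.2 and 18.5 TPM in the wild-type, untransfected, negative-control and mimic libraries, a log2 ratio of -0.51 (-0.66 to -0.36). Prkcd, protein kinase C delta, stood at 91.8, 135, 129 and 106 TPM, a log2 ratio of -0.39 (-0.47 to -0.32). Both were below the 1.5-fold limit although their intervals excluded 0.

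Ezh2, the methyltransferase of Polycomb repressive complex 2, stood at 15.65, 17.7, 18.02 and 16.43 TPM. Its log2 ratio of -0.16 had an interval of -0.37 to 0.04, which includes 0, and it has an 8-base site in a 3′ UTR of 402 bases. Ccnd2, cyclin D2, stood at 372, 316, 414 and 309 TPM. Its ratio was -0.08 against the untransfected library and -0.44 against the negative control. Hmga1, an architectural chromatin protein, behaved likewise, with -0.16 and -0.52.

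Other members of the published list lay above 0. Hmga2, the related chromatin protein, stood at 26.5, 21.9, 29.2 and 33.6 TPM, a log2 ratio of 0.57 (0.44 to 0.71) with 0.38 for negative control over knockout. Cdk6, the kinase partner of D cyclins, has 2 8-base sites in a 3′ UTR of 10217 bases. It stood at 9.34, 12.3, 12.8 and 17.1 TPM, a log2 ratio of 0.43 (0.32 to 0.53) with 0.02 for negative control over knockout. Tdg, a DNA glycosylase of active demethylation, was at 0.39 with 0.70 for negative control over knockout. Tet2 and Tet3, with 8-base sites, were at 0.03 and 0.09, with -0.24 and 0.32 for negative control over knockout.

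Of the host genes, Ctdsp2 has a TACTTGA site and stood at 185, 98.2, 102 and 83.3 TPM, a log2 ratio of -0.29 (-0.36 to -0.23) with 0.02 for negative control over knockout. Ctdspl was at 0.06 (-0.13 to 0.24) and Ctdsp1 at 0.00 (-0.09 to 0.10), with negative control over knockout at 0.07 and -0.08. These are phosphatases of the RNA polymerase II tail, and neither of the last 2 has a site of 6 or more bases.

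Of the matrix genes, crosslinking enzymes other than Plod2 and Loxl2 stayed near their level in untransfected knockout cells. Of 17 measured, 2 were called lower and 0 higher at 1.5-fold, and the median was -0.034, with -0.027 for negative control over knockout. Lox stood at 956 TPM in knockout, 960.5 in negative control and 1011 in mimic, a log2 ratio of 0.04. The collagen prolyl isomerase Fkbp10 stood at 169, 184 and 205 TPM, a ratio of 0.24, and Loxl4 at 18.5, 17.6 and 22.3 TPM, a ratio of 0.23.

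The 21 collagens had a median of 0.15, with 13 above 0 and none called at 1.5-fold in either direction. From knockout to negative control their median was -0.057. Col1a1, the chain of type I collagen, stood at 5821 TPM in wild type, 2780 in knockout, 2733 in negative control and 3234 in mimic, a log2 ratio of 0.18 (0.17 to 0.19). Col1a2, its partner chain, was at -0.05. Col6a1 and Col6a2 of type VI collagen were both at -0.27, with negative control over knockout at -0.23 and -0.22 and mimic over negative control at -0.04 and -0.05. Col5a3 was at 0.42 beside 0.83 for negative control over knockout.

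Among 39 matrix glycoproteins the median was 0.071 (negative control over knockout -0.17). At 1.5-fold 2 (5.13%) were called lower and 0 higher, beside 1.8% and 1.12% of all genes. Mfap2, a microfibril protein, stood at 64.8, 20.7, 16.5 and 11.3 TPM in the wild-type, untransfected, negative-control and mimic libraries, a log2 ratio of -0.92 with -0.38 for negative control over knockout. Lum, the proteoglycan lumican, stood at 100, 14.3, 6.74 and 8.65 TPM, a ratio of -0.77 that was 0.35 against the negative control. Tenascin C (Tnc) and elastin (Eln) were at 0.50 and 0.43 against the untransfected library. Both were much lower in the negative-control library, with ratios of -1.17 and -1.71 to knockout, so the mimic to negative-control ratios were 1.67 and 2.14.

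Matrix proteases and inhibitors went both ways. Of 30 measured, 3 were called higher and 2 lower at 1.5-fold. Plau, the urokinase plasminogen activator, stood at 84.3, 92.1, 134 and 159 TPM in the wild-type, untransfected, negative-control and mimic libraries, a log2 ratio of 0.74 (0.66 to 0.83). The negative control lay between the knockout and the mimic, at 0.51 over knockout. Adamts12, a protease of the ADAMTS family, was at 0.61 with 0.14 for negative control over knockout. Mmp3, stromelysin, stood at 72.2, 203, 91.8 and 101 TPM, a ratio of -1.05, but the negative control was as low. Mmp9, at 1.25 TPM in knockout, 1.04 in negative control and 0.6 in mimic, was the other lower gene.

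**Figure D4:**
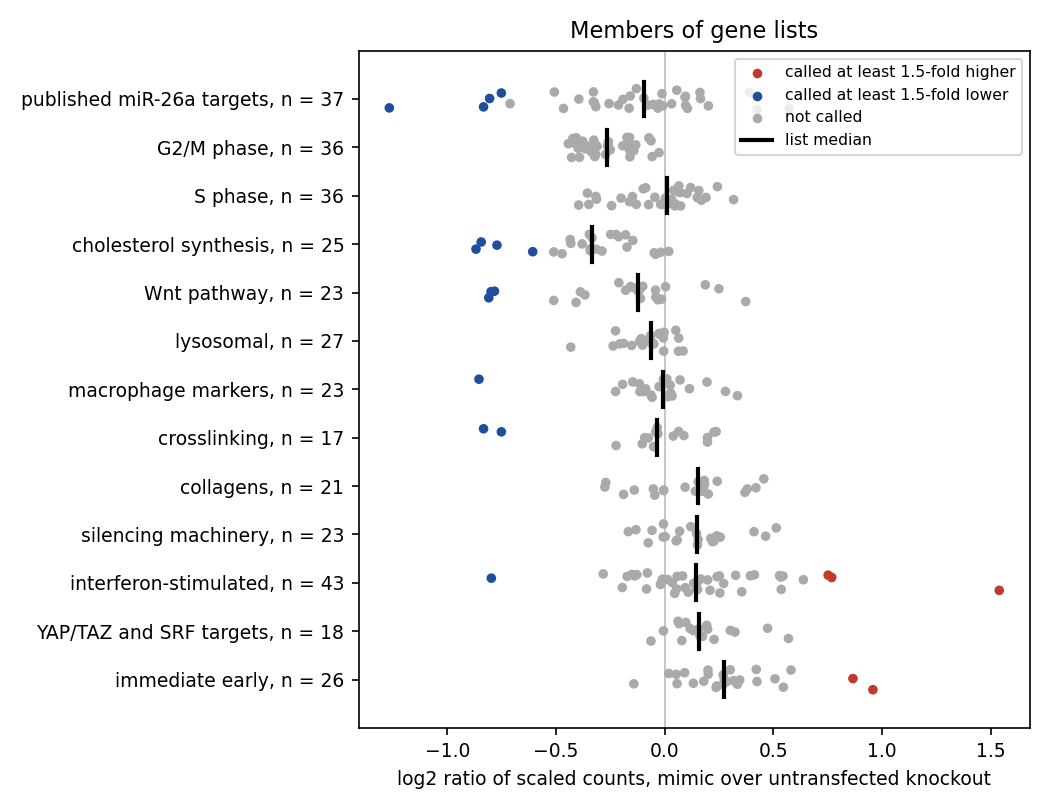
Log2 ratio of scaled counts, mimic over untransfected knockout, of each measured member of 13 gene lists. Each point is 1 gene, coloured by its call at 1.5-fold, and black bars are list medians, from -0.33 for cholesterol synthesis to 0.27 for immediate early genes, while all measured genes have a median of 0.0016.

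Genes of cell division lay below their untransfected level together. The G2/M list had all 36 of its measured members below 0, from -0.44 to -0.03, with a median of -0.27. Intervals lay wholly below 0 for 25 of 36, and over all genes they did so for 2178 of 12536. None of the 36 passed 1.5-fold. Cdc20, the activator of the anaphase-promoting complex, stood at 18.5, 34.3, 31.4 and 26.1 TPM in the wild-type, untransfected, negative-control and mimic libraries, a log2 ratio of -0.44 (-0.64 to -0.25). Ccnb2, cyclin B2, stood at 14.7, 37.2, 33.8 and 28.7 TPM, a ratio of -0.42. Cdca3, a trigger of mitotic entry, stood at 14.99, 43.2, 43.8 and 33.2 TPM, a ratio of -0.43. Of the list, 1 gene has an 8-base site. The list's median was -0.21 against the negative control and -0.072 from knockout to negative control.

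Genes of DNA replication were divided. Of 36 S-phase genes 17 lay below 0, the median was 0.0098, and none was called at 1.5-fold. Pcna, the sliding clamp, stood at 366 TPM in knockout, 351 in negative control and 396 in mimic, and Mcm2 of the replicative helicase at 27.0, 33.4 and 31.4 TPM. Rfc2, of the clamp loader, was at -0.40 with 0.05 for negative control over knockout. Among 19 regulators of G1, the inhibitor Cdkn1c was called lower, with 1.83 TPM in knockout, 1.37 in negative control and 0.56 in mimic, and Ccnd1, cyclin D1, was at 0.27 with 0.19 for negative control over knockout.

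Enzymes of cholesterol synthesis also lay below 0 as a group. Of 25 measured, 24 lay below 0 and 20 had intervals wholly below 0. The median was -0.33, and it was -0.20 against the negative control and -0.090 from knockout to negative control. At 1.5-fold 4 were called lower, among them Acat2, Tm7sf2 and Pmvk. Tm7sf2, a sterol reductase, stood at 47.2, 32.1, 27.2 and 19.4 TPM in the wild-type, untransfected, negative-control and mimic libraries, a log2 ratio of -0.77 (-1.02 to -0.54). Pmvk, phosphomevalonate kinase, stood at 30.9, 32.1, 32.9 and 21.8 TPM, a ratio of -0.61. Fdps, farnesyl diphosphate synthase, stood at 252, 223, 216 and 162 TPM, a ratio of -0.51.

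Acat2 alone of this list has an 8-base site. Fatty acid genes showed no common shift, with 10 of 18 below 0 and a median of -0.0090. Acss2, which makes acetyl-CoA from acetate, was the called member, at 16.1 TPM in knockout, 14.3 in negative control and 9.89 in mimic, a log2 ratio of -0.75.

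Immediate early genes lay above their untransfected level, 25 of 26 of them, with a median of 0.27 and 17 intervals wholly above 0. Over all genes 2165 of 12536 intervals lay above 0. Egr2, a zinc finger factor of growth factor response, stood at 14.0, 10.4, 12.9 and 19.7 TPM in the wild-type, untransfected, negative-control and mimic libraries, a log2 ratio of 0.87 (0.65 to 1.09). Egr3, of the same family, stood at 6.85, 1.5, 2.2 and 3.04 TPM and was the other called member. Egr1 stood at 161, 68.0, 78.5 and 94.2 TPM, a ratio of 0.43 (0.34 to 0.51). The immediate early median was 0.18 against the negative control and 0.067 from knockout to negative control.

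Targets of YAP/TAZ and SRF gave a smaller shift. Of 18 measured 16 lay above 0, the median was 0.16 (negative control over knockout 0.058) and none was called at 1.5-fold. Ankrd1 stood at 1.27, 18.8, 21.03 and 28.9 TPM, a log2 ratio of 0.57, and Srf itself at 23.9, 19.6, 22.0 and 28.2 TPM, a ratio of 0.47. Among 21 contractile genes the median was 0.020, with -0.25 from knockout to negative control and none called. Acta2, smooth muscle actin, stood at 861, 2199, 1804 and 2517 TPM, a ratio of 0.16.

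Of 28 genes of TGF-beta response, 21 lay above 0 with a median of 0.069 (negative control over knockout -0.12), and 1 was called higher at 1.5-fold. Id1 and Id3, inhibitors of helix-loop-helix factors, were at -0.45 and -0.47, with -0.14 and -0.22 for negative control over knockout. Of 23 Wnt genes 19 lay below 0, with a median of -0.12. Sfrp2, Apcdd1 and Wnt5b were called lower. Apcdd1, an inhibitor of the pathway with a TACTTGA site, stood at 12.2, 7.34, 9.18 and 4.34 TPM, a ratio of -0.80 against knockout and -1.08 against negative control. Sfrp2, a secreted Wnt antagonist, stood at 49.9, 6.22, 4.29 and 3.67 TPM. Wnt5b, a non-canonical ligand, stood at 3.52, 2.4, 1.28 and 1.32 TPM, with a ratio of 0.09 to the negative control, and so was not lower with mimic than with the other oligonucleotide. The Wnt list's median was 0.12 against the negative control, where the negative-control library was the lower one.

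Interferon-stimulated genes had a median of 0.15, with 31 of 43 above 0. At 1.5-fold 3 (6.98%) were called higher and 1 (2.33%) lower, beside 1.12% and 1.8% of all genes. Ifi44 stood at 0.9 TPM in knockout, 1.25 in negative control and 2.73 in mimic, Ifit3b at 3.77, 4.65 and 6.65, and Rsad2, viperin, at 1.86, 1.7 and 3.25. Oas1a, a synthetase that senses double-stranded RNA, stood at 15.9, 17.1 and 23.0 TPM, a log2 ratio of 0.54 (0.29 to 0.79). Isg15, by contrast, was at 0.17 with an interval that includes 0, and at 0.59 against the negative control. Among 19 sensors of double-stranded RNA the median was 0.056 and none was called. The interferon list's median was 0.24 against the negative control and -0.093 from knockout to negative control.

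Cytokines and chemokines included several of the lowest ratios. Of 26 measured, 4 were called lower (Saa3, Cxcl5, Cxcl1 and Ccl5) and 1 higher (Ccl2). Saa3, an acute-phase apolipoprotein, stood at 4.66, 74.8, 14.3 and 17.2 TPM in the wild-type, untransfected, negative-control and mimic libraries. Its log2 ratio was -2.14 (-2.53 to -1.80) against knockout and 0.37 against negative control, so the untransfected knockout library stood apart. Ccl5 had the same form, at 3.19, 23.9, 11.5 and 14.3 TPM. Cxcl5, a neutrophil chemokine, stood at 31.1, 13.9, 8.12 and 6.13 TPM, lower in both transfected libraries and lowest with mimic. Ccl2, a monocyte chemokine, stood at 183, 202, 289 and 319 TPM, a ratio of 0.60, with the negative control at 0.46.

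Oxidative stress genes of the NRF2 pathway had 13 of 19 above 0 and a median of 0.081. Nqo1, a quinone reductase, stood at 15.5, 49.0, 69.2 and 87.6 TPM, a log2 ratio of 0.79 (0.65 to 0.93), and Srxn1, sulfiredoxin, at 84.4, 70.0, 124 and 116 TPM, a ratio of 0.69. The negative control was at 0.45 and 0.79 over knockout for these, and against it the list's median was -0.031. Of the amino acid response, Psat1 of serine synthesis was at 0.55, Trib3 at 0.46 and Phgdh at 0.38, with negative control over knockout at 0.54, 0.51 and 0.35.

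Of 18 p53 response genes, 2 were called lower. Perp, a desmosomal protein, stood at 2.33, 6.05, 6.01 and 2.98 TPM in the wild-type, untransfected, negative-control and mimic libraries, a log2 ratio of -1.05 (-1.60 to -0.55). It has an ACTTGAA site. Trp53inp1, a stress-induced nuclear protein, has the TACTTGA site printed above and stood at 88.6, 60.9, 63.7 and 40.1 TPM, a ratio of -0.64 (-0.73 to -0.56). Cdkn1a, the main p53-induced cell cycle inhibitor, was at 0.03 with -0.08 for negative control over knockout. For Perp and Trp53inp1 the negative control stayed at the knockout level and the mimic library was the lower.

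The silencing machinery itself had a median of 0.15, with 17 of 23 above 0 and none called at 1.5-fold. From knockout to negative control its median was 0.0076. The list's median 3′ UTR was 2750 bases. Genes without a site in the long 3′ UTR group had a median of 0.068, with 33.5% below 0, beside 26.1% of this list. Dcp2, the decapping enzyme, stood at 12.8, 10.5, 11.5 and 15.4 TPM, a log2 ratio of 0.51. Tarbp2, a Dicer partner, was at 0.46 and Ago2 at 0.26, with negative control over knockout at 0.20 and -0.24. Of 17 genes of Polycomb and TET enzymes, Tet1 was called and the median was 0.012.

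Markers of macrophages as a list were divided, with 12 of 23 below 0 and a median of -0.0058, which was 0.046 on the TPM scale. The called member was Aif1, an actin-bundling protein of microglia and macrophages, at 20.3, 58.4, 62.7 and 33.5 TPM in the wild-type, untransfected, negative-control and mimic libraries. Its log2 ratio was -0.85 (-1.10 to -0.62), and it has no site of 6 or more bases in a 3′ UTR of 118 bases. Adgre1, Csf1r and Cd68 were at 0.11, 0.01 and -0.01, with 0.02, 0.08 and 0.04 for negative control over knockout. Of 27 lysosomal genes 23 lay below 0 with a median of -0.065. Against the negative control the lysosomal median was 0.023, and from knockout to negative control it was -0.035. Glb1, beta-galactosidase, was lowest of the list at -0.43, with 145 TPM in knockout, 146 in negative control and 111 in mimic.

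General fibroblast markers had a median of -0.051 over 18 genes, with Lum called lower, and markers of the synovial lining had 0.056 over 9. From knockout to negative control these medians were -0.14 and -0.46. The hyaluronan synthase Has2 was at -0.58, with -0.64 for negative control over knockout and 0.07 for mimic over negative control. The lubricin gene Prg4 was at 0.08, with -0.63 and 0.71 in that order. Markers of other cell types were few. Endothelial and adipocyte lists had 5 measured members each, Schwann cell and pericyte lists 8 each, cartilage and tendon 9, osteoblast 6 and skeletal muscle 2. Of the 10 lymphocyte markers 0 were measured, and their summed level was at most 0.36 TPM. Called members of these lists were Acta1, Alpl, Abcc9, Cspg4 and Col2a1. Alpl stood at 3.35 TPM in knockout, 1.34 in negative control and 1.35 in mimic, and Abcc9 at 0.69, 0.38 and 0.36, so neither was lower with mimic than with the other oligonucleotide beyond its interval. Acta1 stood at 5.56, 3.87 and 3.08 TPM in the same order. Cspg4 stood at 13.4, 11.4 and 21.5 TPM and Col2a1 at 4.42, 3.32 and 6.84 TPM, both highest with mimic among the knockout libraries. Housekeeping genes had a median of 0.020, with 15 members between -0.19 and 0.17.

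The largest ratios at 5 TPM or more were in part those of genes that share reads with a copy. Entpd4 was at 163 counts in knockout and 0 in mimic, yet summed with its copy Entpd4b the ratio was 0.11. Likewise Plac9a was at 1.53 alone and at 0.11 summed with Plac9b, and Zfp967 at 1.26 alone and 0.15 summed with Zfp966. Ccl27a was at -1.12 alone and at -1.65 (-2.66 to -0.85) summed with Ccl27b, on 47 and 15 counts, and so stayed lower. Rpl37rt was at -1.23 alone and, summed with the far more abundant Rpl37, at -0.48 (-0.54 to -0.41). The authors' counting could have split reads between such copies.

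Of the others, Ereg, epiregulin, an EGF-receptor ligand, had the largest well-supported higher ratio. It stood at 1.55, 3.63, 5.57 and 10.0 TPM in the wild-type, untransfected, negative-control and mimic libraries, a log2 ratio of 1.42 (1.14 to 1.72) against knockout and 0.84 against negative control. Ly6k and Cox6a2 were at 1.35 and 1.16 on 14 and 11 counts in knockout, with 0.69 and 0.72 for negative control over knockout. On the lower side, Cenpm, a centromere protein, stood at 2.23, 7.3, 4.24 and 2.86 TPM, a ratio of -1.33, and Gbp8, an interferon-induced GTPase, at 3.4, 5.07, 3.88 and 2.01 TPM, a ratio of -1.29. Cfb, complement factor B, stood at 20.7, 10.8, 4.97 and 4.85 TPM, nearly equal in both transfected libraries. Ms4a4d was at -1.06, with -0.65 for negative control over knockout.

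**Figure D5:**
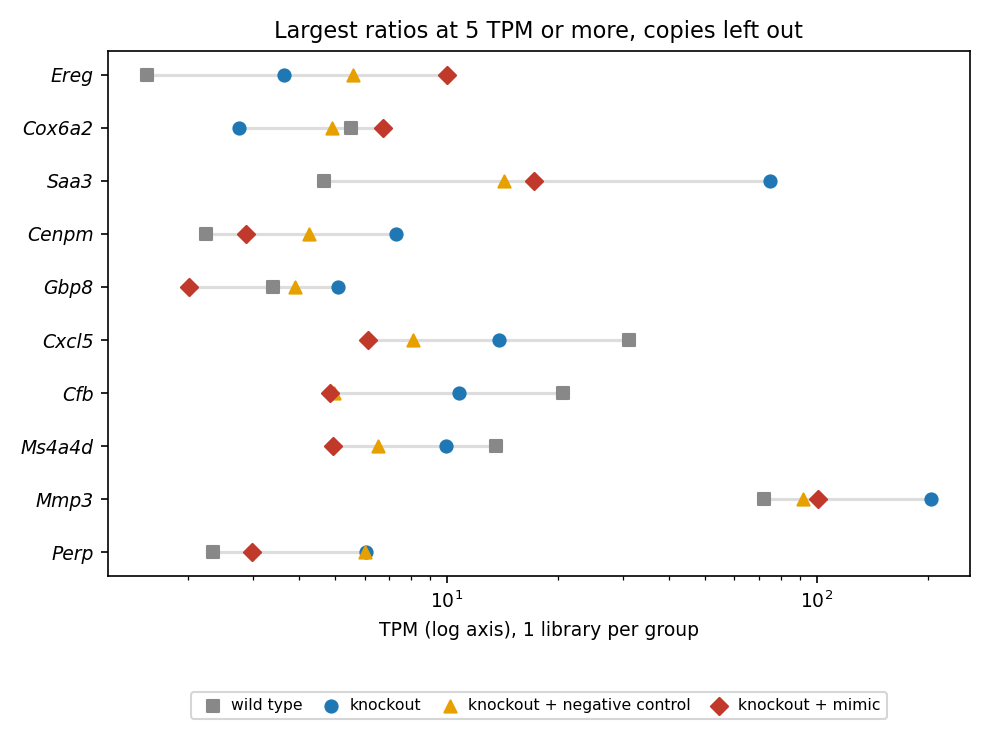
Level in each of the 4 libraries (TPM, log axis) of the genes called at 2-fold with at least 5 TPM, leaving out genes with a near-identical copy and Ly6k, which is at 0 TPM in wild type. Each symbol is 1 library. Saa3, Cfb and Mmp3 are low in both transfected libraries, and Perp is low in the mimic library with 2.98 TPM.

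At 1.5-fold, abundant genes above their untransfected level, named after their values were seen, included Cemip, Slc7a5, Ero1l and Fscn1. Cemip, a hyaluronan-degrading protein, stood at 59.4, 95.4, 71.9 and 191 TPM in the wild-type, untransfected, negative-control and mimic libraries, a log2 ratio of 0.96 (0.92 to 1.00). For Cemip the mimic library was the highest of the 4 and the negative control was below the knockout. Slc7a5, an amino acid transporter, stood at 89.3, 54.9, 62.0 and 88.7 TPM. Fscn1, the actin bundler fascin, stood at 161, 89.3, 151 and 139 TPM, and was as high in the negative control.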

How the data were processed

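RNA was sequenced from 4 cultures, 1 library a group, grouped by the labels. FastQC, HISAT, Bowtie2, GRCm38.p6 and mm10 appear without roles in the submitters' processing notes. No source used here gives the quantification tool, the annotation or the use of strand. Per the file headers, the authors deposited estimated counts (4.99% to 5.28% of values have decimals), TPM, FPKM and normalized counts. The deposited TPM gave the levels. The deposited FPKM, proportional to TPM in each library, were not used. The deposited normalized counts, a signal equal to the counts times 1 factor per library, were not used either. Spreadsheet dates in place of 26 symbols were restored through the Entrez identifiers.

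Estimated counts were scaled by edgeR 4.0.16 TMM factors over all 4 libraries (0.978, 1.00, 1.02 and 0.997, in the order wild type, untransfected, negative control, mimic), with a prior of 1 count. They were rounded for the Clopper-Pearson 95% intervals, which, like the floor of 3 counts (0.151 to 0.170 CPM), cover counting error only. A gene whose transcript lengths differ can have a TPM ratio unlike its count ratio. The 3′ UTRs came from GENCODE M21 (GRCm38) for 15790 genes (96.2%). Named genes were the 12 largest ratios in each direction at 2-fold and 5 TPM (fewer qualified), the 12 lowest with an 8-base site, up to 4 of each list, host genes and published targets. The members, gene lists and rules were chosen with earlier results of these data known. Alternatives were plain totals, DESeq2 1.42.0 size factors, a prior of 5, filters of 5 CPM or none, TPM with pseudocounts of 1 and 0.1, all 3′ UTRs of a gene, and 3′ UTR length groups. The interval procedure was tested on simulated counts. Of 7 other microRNAs listed, 4 were found in the RefSeq table. R 4.3.3 and Python 3.11.15 with scipy 1.17.1 were used. Results for some genes are not reported here.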

Additional observations from a re-analysis of the deposited data

How the results depend on the processing

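No paired analysis was possible because each group has 1 library, and no library could be left out. Plain totals and DESeq2 size factors moved none of the 44 summary values computed under them beyond the limits set (1.5 times for a count, the counting interval or spread for a median), and no direction of a called value reversed under any alternative. With a prior count of 5, genes lower at 2-fold fell to 34. With at least 5 CPM 10810 genes were measured, with 3 higher and 9 lower at 2-fold, and 76 and 106 at 1.5-fold. Among the 12536 genes of the main setting these were 33 and 59, and 141 and 226. Most genes called at 2-fold thus lay below 5 CPM in both libraries. Without a filter there were 69 and 90 at 2-fold, and 1 gene with an 8-base site, Erc2 on 2 counts in knockout, was higher at 1.5-fold. Taking all 3′ UTRs of a gene also gave 1 such gene, Klhl15. The TPM counts that follow used the fold limit alone, without an interval. On TPM with a pseudocount of 1 there were 6 higher and 12 lower at 2-fold, 104 lower at 1.5-fold, 17 lower genes with an 8-base site, and medians of -0.0295, 0.0313 and 0.0388 for 8-base, TACTTGA and ACTTGAA genes, 0.0646 for S-phase genes and 0.0457 for macrophage markers. With a pseudocount of 0.1 there were 242 higher at 1.5-fold, 2 of them with an 8-base site (Pde1c and Olfr613, both under 2 TPM), and the medians were -0.0339, 0.0349, 0.0426, 0.0657 and 0.0457. All genes had medians of 0.041 and 0.045 on these scales. The 8-base median minus that of genes without a site was -0.076 overall and -0.226, -0.179 and -0.102 in short, middle and long 3′ UTRs. Of 1273 values of single genes under the alternatives, 37 moved beyond their counting interval, 35 of them on TPM. Counting precision was set by each gene's count: an interval reached a median of 0.178 log2 to either side of its ratio. Smaller differences were not detectable at this depth for such a gene. Larger ones exceed counting error only, since the spread between cultures could not be estimated.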

Other observations

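Families chosen after their values were seen differed in how far they shifted. Of all measured genes 49.7% lay below 0, and 2178 of 12536 had intervals wholly below 0. Of 83 cytosolic ribosomal protein genes 74 lay below 0, with a median log2 ratio of mimic over untransfected knockout of -0.19 and intervals wholly below 0 for 65. Rps21 stood at 1935 TPM in wild type, 2634 in knockout, 2418 in negative control and 1870 in mimic, and Rpl41 at 3468, 4190, 3233 and 3084. The family's median was -0.094 from knockout to negative control and -0.11 from negative control to mimic. Of 78 genes of the respiratory chain and ATP synthase 67 lay below 0, with a median of -0.13. Uqcrb stood at 412 TPM in knockout, 347 in negative control and 294 in mimic. Of 75 mitochondrial ribosomal proteins 57 lay below 0 (median -0.091), and of 46 proteasome genes 27 did (median -0.029). These families have short 3′ UTRs, with medians of 160, 219, 390 and 282 bases, and only 2, 1, 2 and 0 of their genes hold an 8-base miR-26a site. Among all genes without a site and with a 3′ UTR of up to 746 bases, 61.6% lay below 0, with a median of -0.057. The proteasome genes were no lower than those.

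Other families differed in direction. Of 208 solute carriers 77 lay below 0, with a median of 0.067 and a median 3′ UTR of 1601 bases, and of 321 zinc finger genes named Zfp 138 did, with a median of 0.029 and 1435 bases. Of 27 Hox genes 16 lay below 0, with a median of -0.12 and a median 3′ UTR of 966 bases. Against the negative control the Hox median was 0.15, and from knockout to negative control it was -0.059. Intervals lay wholly below 0 for 3 Hox genes (11.1%) and wholly above 0 for 2 (7.41%). Over all genes with a 3′ UTR these shares were 17.5% and 17.3%. Hoxa9 was the lowest of the Hox genes, and Hoxb9 the highest, at 1.4 TPM in knockout, 1.01 in negative control and 2.39 in mimic.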
